A study of Mus musculus with 18 samples.

Results

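The loci of miR-15, miR-16, miR-195 and miR-497 are 6 mouse microRNA (miRNA) genes at 3 places in the genome, Mir15a with Mir16-1, Mir15b with Mir16-2, and Mir195a with Mir497. They were chosen by gene name, and 5 of the 6 had a row of their own among the 2009 annotated miRNA loci counted. All 5 passed the filter on low counts. Mir497 had no row. The row at its position is that of Mir497b, which is annotated on the other strand and covers Mir497 whole, and its counts are given beside the members under the name Mir497b.

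Small RNA had been sequenced from adipose-derived stromal cells (ASC) of adult mice of the strain NGL, and from the extracellular vesicles (EV) that such cells shed into the medium. Naive ASC had no interferon gamma, and primed ASC had interferon gamma for 24 h, after which both were kept for 48 h in alpha MEM with 2% vesicle-free serum. There were 5 libraries of naive EV, 5 of primed EV, 4 of naive ASC and 4 of primed ASC, and the labels do not tie replicates to separate animals or cultures, so the p-values reflect no more than the spread among the libraries, which may be technical. Within a group some sample titles share a number: primed EV 1 and primed EV 5 are both titled 5, and naive EV 1 is titled 1+2 beside naive EV 2, titled 2. Whether such libraries share a source is not stated, so each was counted as 1 sample, and the EV against ASC calls of Mir15a, Mir15b and Mir16-1 held without primed EV 1 and without naive EV 1. EV RNA came from a SeraMir column kit and ASC RNA from TRIzol and RNeasy columns, so an effect of the vesicle and an effect of the isolation method cannot be told apart.

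A miRNA is a short RNA cut from a hairpin, which guides an Argonaute protein to messenger RNAs that pair with its seed, bases 2 to 8. miRNAs with 1 seed are predicted to reach largely the same messages. The miR-15/16 family is known for restraining the cell cycle through messages such as those of D-type cyclins and cyclin E1, and for repressing Bcl2, which blocks cell death. Mir15a and Mir16-1 lie in a region often lost in human chronic lymphocytic leukaemia, and miR-195 and miR-497 are also known for slowing cell division.

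The 5p miRNAs of the members are printed 5′ to 3′ with the seed in capitals, because the shared seed is what makes these loci 1 family (RefSeq sequences, GRCm38.p6).
miR-15a-5p: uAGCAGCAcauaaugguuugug
miR-15b-5p: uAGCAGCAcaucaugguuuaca
miR-16-5p: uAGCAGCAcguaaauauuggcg
miR-195a-5p: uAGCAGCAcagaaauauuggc
miR-497a-5p: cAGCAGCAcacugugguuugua
The seed is the same in all of them, and 11 of 1738 mature entries in the RefSeq table (0.633%) carry it. Counted from 1 at the 5′ end, miR-15a-5p and miR-15b-5p differed at 4 of 22 positions, A12C, G20A, U21C and G22A, with the base of miR-15a-5p first. miR-16-5p and miR-195a-5p differed at 2 of 21 positions, G10A and U11G, with the base of miR-16-5p first.

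The other arms are shown because they decide which locus a read can be placed at, and here the capitals mark bases 2 to 8 of each arm.
miR-16-1-3p: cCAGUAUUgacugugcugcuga
miR-16-2-3p: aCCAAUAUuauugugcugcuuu
miR-497a-3p: cAAACCACacugugguguuag
miR-497b: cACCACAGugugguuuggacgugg
The hairpins of Mir16-1 and Mir16-2 both give miR-16-5p, and the stretch they share around it is 23 bases long. A read of this miRNA fits both places equally, whereas the 3p arms differ at 10 of 22 positions. Per the file headers the counting had no option for reads that fit several places, so the rows of Mir16-1 and Mir16-2 cannot be read as levels of miR-16-5p, and how many of its reads were left out was not tested. On chromosome 11, miR-497b overlaps miR-497a-3p on the opposite strand by 17 bases and miR-497a-5p by 0 bases, and counting ignored strand, so the Mir497b row pools reads of both strands.

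On GRCm38, Mir15a is at 61632027 to 61632110 and Mir16-1 at 61631880 to 61631972 on the minus strand of chromosome 14. Mir15a is in an intron of the long non-coding RNA Dleu2, and Mir16-1 overlaps an exon of one of its transcripts. Mir15b is counted over 69009756 to 69009853, a wider span than the 69009772 to 69009835 of GENCODE M21, and Mir16-2 over 69009902 to 69009996 on the plus strand of chromosome 3, both in an intron of Smc4, which encodes a condensin subunit. Mir195a is at 70235042 to 70235135 on the plus strand of chromosome 11. The Mir497b row runs from 70234692 to 70234816 on the minus strand, around Mir497 at 70234717 to 70234800, and apart from this overlap none of the 3 lies within another GENCODE gene.

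Library totals ran from 613448 to 3052942 counts in EV and from 180812 to 926183 in ASC. All 13 stromal markers in the files had counts in every group and made up 35.7 to 57.3% of naive ASC, 40.5 to 49.7% of primed ASC, 68.3 to 71.3% of naive EV and 70.7 to 72.6% of primed EV counts. The list split: of 12 tested, 3 were higher (Mir143, Mir22 and Mir21a) and 4 lower (Mir145a, Mir214, Mir125b-1 and Mir125b-2) in naive EV, and 4 were higher and 5 lower in primed EV. All 6 blood and red cell markers, among them Mir451a and Mir223, passed as higher in EV in both the naive and the primed comparison. None of them was at 0 in any group, and their summed share was 0.361 to 1.49% in naive EV, 0.147 to 0.625% in primed EV, 0.0128 to 0.0214% in naive ASC and 0.00916 to 0.0559% in primed ASC. The endothelial marker Mir126a and the 1 liver marker tested were higher in EV in both comparisons. Of 9 epithelial markers tested, 3 were higher and 0 lower in each comparison, near the share of all loci called higher. Of 2 neural markers tested, 1 was lower and 0 higher in naive EV, and 0 passed in primed EV. Over all loci tested, 33.5% were higher and 32.7% lower in naive EV, and 35.9% and 32.2% in primed EV. The summed share was 0.059 to 0.127% in naive EV and 0.0177 to 0.046% in naive ASC for liver markers, and 0.284 to 1.37% and 1.11 to 1.95% for epithelial markers.

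The first question was how the family in EV differed from that in the cells. Mir15a and Mir15b went opposite ways. Mir15a was about 6 times higher in EV than in ASC, and Mir15b was about 4 times lower, in naive and in primed material alike. Mir16-1, the neighbour of Mir15a, was also higher in EV but by less, while Mir16-2, the neighbour of Mir15b, did not fall with it. Mir195a did not pass in either comparison.

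Levels are given as CPM, the count scaled to a common library size, on totals multiplied by TMM, a factor per library that corrects for composition. Adjusted p-values come from 1 edgeR quasi-likelihood fit, with Benjamini-Hochberg adjustment over all loci tested. Mir15a, whose miRNA is known for targeting Bcl2 and cyclin messages, was at 352, 323, 463, 591 and 375 CPM in naive EV 1 to 5 and at 61.8, 80.5, 63.2 and 64.2 CPM in naive ASC 1, 3, 4 and 5. In primed material it was at 457, 301, 404, 516 and 414 CPM in EV 1 to 5 and at 62.7, 67.2, 45.7 and 99.4 CPM in ASC 2 to 5. Every EV library was above every ASC library, with the closest values 301 CPM in primed EV 2 and 99.4 CPM in primed ASC 5. The difference was 6.21-fold in naive material (log2 fold change 2.64 with SE 0.25 over 5 and 4 libraries; edgeR adjusted p = 2.7e-08) and 5.95-fold in primed material (2.57, SE 0.26; adjusted p = 4.21e-08).

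Mir15b, which differs from Mir15a by 4 bases in its 5p miRNA, was at 239, 178, 239, 261 and 155 CPM in naive EV 1 to 5 and at 851, 725, 763 and 1230 CPM in naive ASC 1, 3, 4 and 5. It was at 257, 195, 277, 234 and 283 CPM in primed EV 1 to 5 and at 887, 817, 922 and 938 CPM in primed ASC 2 to 5. All ASC libraries thus lay above all EV libraries, the reverse of Mir15a. In EV, Mir15b was 4.15-fold lower in naive material (log2 fold change -2.05 with an SE of 0.20; edgeR adjusted p = 3.43e-08) and 3.58-fold lower in primed material (-1.84, SE 0.20; adjusted p = 1.27e-07). For Mir15a and Mir15b these calls held under all 10 alternatives and in all 18 fits that left out 1 library. With library totals alone the primed values moved to 1.87 for Mir15a and -2.56 for Mir15b.

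Mir16-1 was at 180, 143, 177, 203 and 139 CPM in naive EV 1 to 5 and at 87.5, 111, 83.1 and 50.6 CPM in naive ASC 1, 3, 4 and 5. Its primed levels were 220, 157, 233, 225 and 212 CPM in EV 1 to 5 and 40, 64.5, 49.8 and 123 CPM in ASC 2 to 5. Again no EV library overlapped an ASC library of the same treatment on TMM-scaled totals. On raw totals the primed groups overlapped, with EV from 138 CPM and ASC up to 142 CPM. The difference was 2.02-fold in naive material (log2 fold change 1.02 with an SE of 0.29; edgeR adjusted p = 0.00539) and 2.97-fold in primed material (1.57, SE 0.31; adjusted p = 0.000144). With library totals alone the naive call was lost (0.56, adjusted p = 0.0521) and the primed value was 0.88 (adjusted p = 0.00558).

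Mir16-2 had few counts, 15 to 52 in naive EV, 7 to 68 in primed EV, 11 to 17 in naive ASC and 2 to 19 in primed ASC libraries. It was at 25.5, 21.4, 27.1, 38.2 and 24.8 CPM in naive EV 1 to 5, all above the 18.9, 14.6, 15.4 and 14.8 CPM of naive ASC 1, 3, 4 and 5. On raw totals Mir16-2 overlapped between these groups, from 21.7 CPM in naive EV and up to 23.1 CPM in naive ASC. In primed EV 1 to 5 it was at 13.2, 25.4, 29.4, 17.3 and 25 CPM, which overlapped the 11.8, 5.38, 12.5 and 23.6 CPM of primed ASC 2 to 5. Neither comparison passed, at a log2 fold change of 0.78 in naive (SE 0.37; edgeR adjusted p = 0.0727) and 0.67 in primed material (SE 0.39; adjusted p = 0.14). With library totals alone the values were 0.30 and 0.016. The naive value passed in 3 of the 10 alternatives and without primed ASC 3 (adjusted p = 0.0469) or primed ASC 5 (0.0391), and the primed value passed without primed ASC 5 (1.13, adjusted p = 0.0261).

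**Figure D1:**
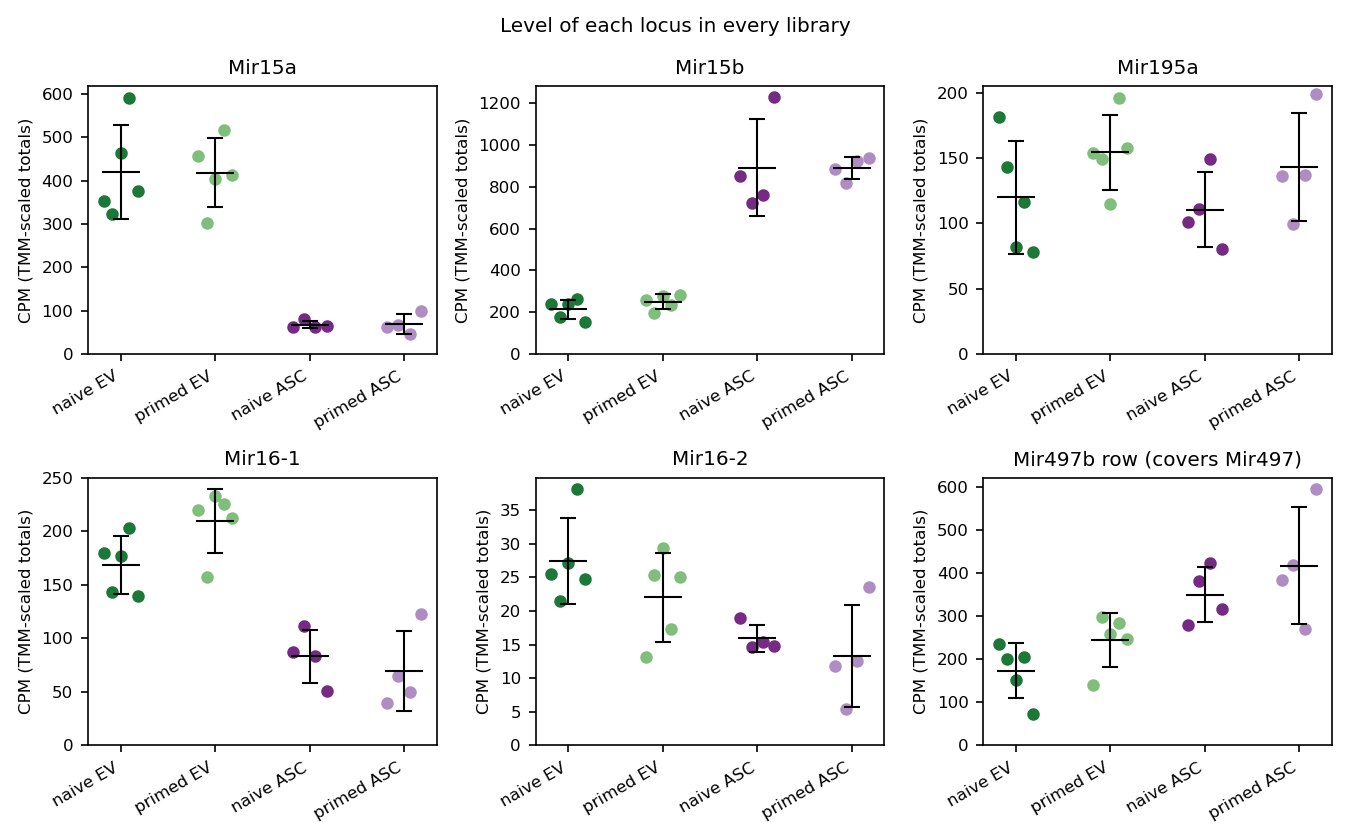
Level of each member and of the Mir497b row in CPM on TMM-scaled totals (linear axes from 0) in the 4 groups; points are libraries, long bars are means and whiskers are 1 SD. The EV libraries of Mir15a lie between 301 and 591 CPM and its ASC libraries between 45.7 and 99.4, while Mir15b runs from 155 to 283 CPM in EV and from 725 to 1230 in ASC.

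Mir195a, the neighbour of Mir497, was at 181, 143, 82.1, 116 and 77.7 CPM in naive EV 1 to 5 and at 101, 111, 149 and 80.3 CPM in naive ASC 1, 3, 4 and 5. It was at 154, 149, 115, 196 and 158 CPM in primed EV 1 to 5 and at 136, 99.5, 137 and 199 CPM in primed ASC 2 to 5. The groups overlapped throughout. Its log2 fold changes were 0.12 (SE 0.28; edgeR adjusted p = 0.701) and 0.10 (SE 0.28; adjusted p = 0.765), and they took negative values of -0.31 and -0.60 with library totals alone.

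The Mir497b row, which holds reads of both strands at Mir497, was at 236, 201, 151, 206 and 72.7 CPM in naive EV 1 to 5, all below the 278, 380, 423 and 317 CPM of naive ASC 1, 3, 4 and 5. In primed EV 1 to 5 it was at 139, 297, 258, 284 and 247 CPM, and in primed ASC 2 to 5 at 384, 419, 270 and 595 CPM, where primed ASC 4 fell among the EV libraries. It was lower in EV in naive (log2 fold change -1.01 with an SE of 0.30; edgeR adjusted p = 0.00572) and in primed material (-0.77, SE 0.30; adjusted p = 0.0274). With library totals alone the primed value was -1.45 (adjusted p = 0.00028). The primed call was lost without the filter on low counts (-0.62, adjusted p = 0.114) and without primed EV 1 (-0.59, adjusted p = 0.0787) or primed ASC 5 (-0.56, adjusted p = 0.147).

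These calls stand in a comparison where most loci passed. Of 245 loci tested, 66.1% passed in naive and 68.2% in primed material, and 58.4% and 53.5% had groups that did not overlap (30.2% higher and 28.2% lower in naive EV, 27.8% and 25.7% in primed EV). Of the 5 members, 2 were higher, 1 was lower and 2 did not pass in each comparison, where 33.5% of all loci were higher and 32.7% lower in naive EV, and 35.9% and 32.2% in primed EV. The members' median log2 fold change was 0.78 in naive and 0.67 in primed material, beside -0.24 and 0.02 over all loci. When libraries were scaled by totals alone, the median over all loci moved to -0.70 and -0.69, and the split of calls moved from 82 higher and 80 lower to 65 and 116 in naive material and from 88 and 79 to 58 and 118 in primed material, so each direction is relative to the scaling.

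**Figure D2:**
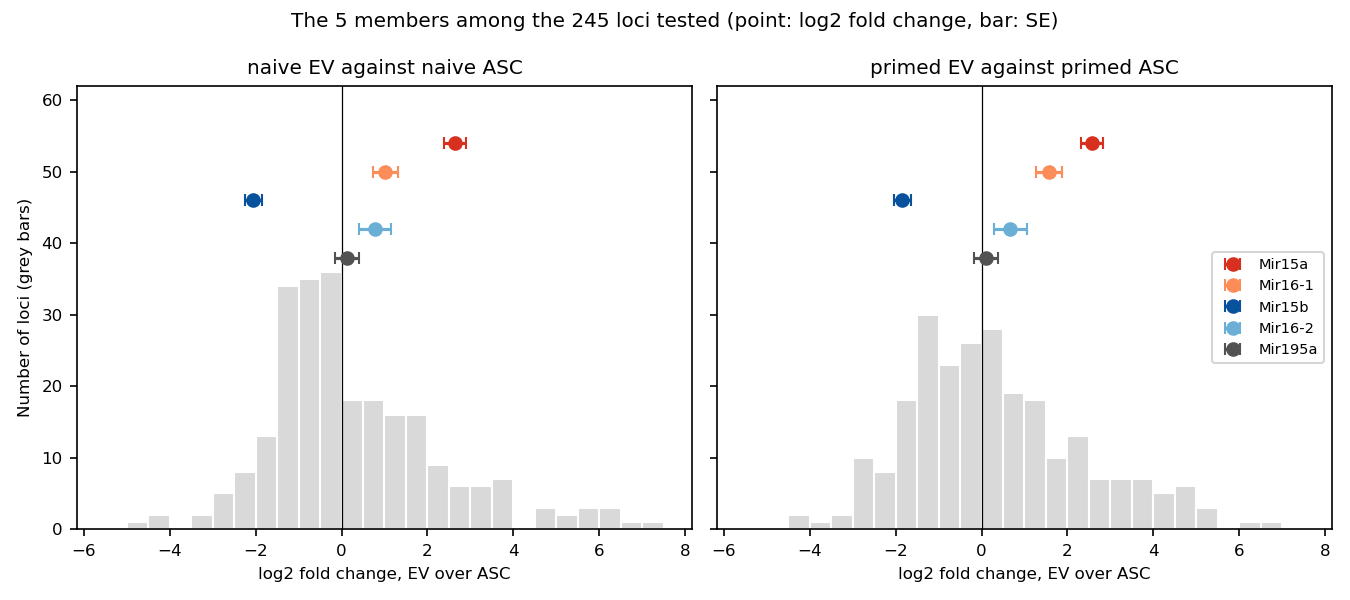
Number of loci (grey bars, left axis) by log2 fold change of EV over ASC for the 245 loci tested, in naive (left) and primed material (right); coloured points with SE whiskers are the 5 members, set above the bars at heights with no meaning. Mir15a at 2.64 and 2.57 and Mir15b at -2.05 and -1.84 lie on opposite sides of 0.

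Naive EV 4 held the largest blood marker share (1.49% of counts, against 0.361 to 0.665% in the other naive EV libraries). It also held the highest naive EV levels of Mir15a (591 CPM), Mir16-1 (203), Mir15b (261) and Mir16-2 (38.2). In primed EV 1 to 5 the blood marker share was 0.545, 0.147, 0.342, 0.625 and 0.422%. Mir15a, at 457, 301, 404, 516 and 414 CPM there, ran in the same order, and no other member did. How many of all loci ran in this order was not counted. In naive EV no member ran in the order of the blood marker share. Without naive EV 4 the Mir15a value in naive material was 2.48 (edgeR adjusted p = 4.01e-08). The blood marker share was at least 0.147% in every EV library and at most 0.0559% in every ASC library. Leaving out 1 EV library therefore cannot separate blood markers from EV. The part of the blood markers in the EV value of Mir15a was not tested.

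The 5 members together made up 0.0870% ± 0.0107 of counts in naive EV (SD, n = 5), 0.0788% ± 0.00404 in primed EV (n = 5), 0.153% ± 0.0474 in naive ASC (n = 4) and 0.146% ± 0.0139 in primed ASC (n = 4). The highest share in an EV library was 0.103% and the lowest in an ASC library was 0.123%. These are shares of raw totals. TMM factors ran from 0.6777 to 1.082 in EV and from 1.153 to 1.557 in ASC libraries. The difference is thus smaller on TMM-scaled totals, and whether the groups stay apart there was not tested. The make-up differed as well. Shares here are of the counts of the 5 members, without Mir497b and without Mir322, another locus with the same seed. Mir15b held 75.5% ± 7.13 of these counts in naive ASC and 75.6% ± 5.20 in primed ASC, but 22.5% ± 1.84 in naive and 23.7% ± 2.61 in primed EV. Mir15a held 44.1% ± 5.79 in naive and 39.5% ± 2.90 in primed EV, but 5.90% ± 1.36 and 5.75% ± 1.40 in naive and primed ASC. Mir16-1 held 17.7% and 19.9% in naive and primed EV against 7.43% and 5.70% in ASC, and Mir195a held 12.8%, 14.8%, 9.78% and 11.9% in naive EV, primed EV, naive ASC and primed ASC. These shares compare rows as counted, with no correction for hairpin length. How well each sequence was captured and placed differs between rows and was not tested.

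**Figure D3:**
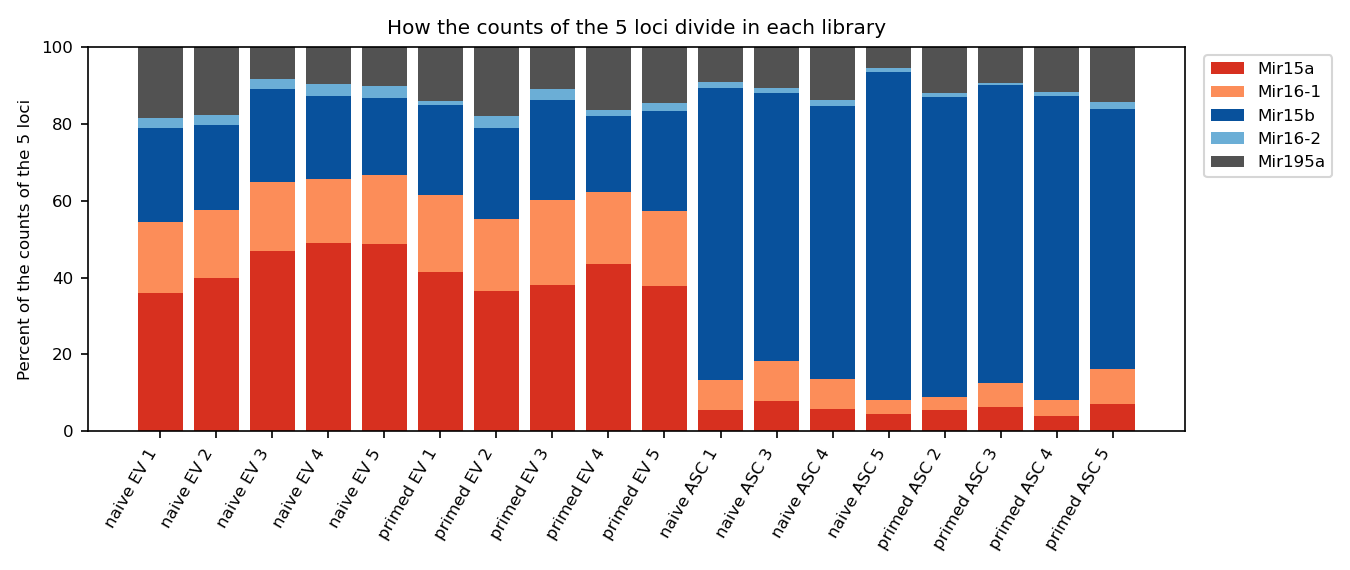
Percent of the summed counts of the 5 members that each holds, 1 stacked bar per library. Mir15b takes 67.8 to 85.4% of the bar in the ASC libraries and 19.7 to 26.2% in the EV libraries, and Mir15a takes 36 to 48.9% in EV and 3.91 to 7.73% in ASC.

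The count of Mir15a divided by that of Mir15b does not depend on any scaling of the libraries. In naive EV 1 to 5 it was 1.47, 1.81, 1.94, 2.27 and 2.41. Primed EV 1 to 5 gave 1.77, 1.54, 1.46, 2.21 and 1.46. Naive ASC 1, 3, 4 and 5 gave 0.0726, 0.111, 0.0828 and 0.0523, and primed ASC 2 to 5 gave 0.0707, 0.0822, 0.0495 and 0.106. Mir15a thus had the higher count in all EV libraries and Mir15b in all ASC libraries. This ratio was picked after its values were seen and was given no test.

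The 2 hairpins of a locus are cut from 1 primary transcript, so a further question was whether the rows of neighbours changed equally. Their counts were compared within each library as the log2 ratio with 1 added to each count, by exact two-sided permutation tests adjusted over the 10 tests made. For Mir16-1 over Mir15a the mean log2 ratio was -1.30 ± 0.23 (SD, n = 5) in naive EV and 0.25 ± 0.39 (n = 4) in naive ASC, a difference of -1.55 (exact permutation p = 0.0159, the smallest this design allows; adjusted p = 0.0397). Mir16-1 had 0.343 to 0.512 counts per count of Mir15a in the naive EV libraries and 0.788 to 1.42 in the naive ASC libraries. In primed material the means were -0.99 ± 0.15 (n = 5) and -0.07 ± 0.41 (n = 4), a difference of -0.92 (exact permutation p = 0.0159, again the smallest possible; adjusted p = 0.0397). Both rows were higher in EV, and that of Mir15a was so by more than that of its neighbour. How many reads of miR-16-5p entered the rows of Mir16-1 and Mir16-2 was not tested. The ratios thus compare rows and cannot show whether neighbouring hairpins changed equally.

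On chromosome 3 the rows of the neighbours parted more widely. The log2 ratio of Mir16-2 over Mir15b was -2.92 ± 0.27 (n = 5) in naive EV and -5.68 ± 0.39 (n = 4) in naive ASC, a difference of 2.76 (exact permutation p = 0.0159; adjusted p = 0.0397). Per count of Mir15b, Mir16-2 had 0.107 to 0.160 counts in naive EV and 0.0121 to 0.0222 in naive ASC libraries. In primed material the difference was 2.50 with groups that did not overlap, but Mir16-2 averaged 9.25 counts in primed ASC, below the minimum of 10 set for this test, so no p is given. Mir497b over Mir195a was a pair added after the data were seen because Mir497 has no row. The Mir497b row is annotated on the strand opposite to Mir195a and pools reads of both strands, so 1 shared transcript cannot be assumed. This ratio had log2 means of 0.49 ± 0.39 (n = 5) in naive EV and 1.67 ± 0.24 (n = 4) in naive ASC (exact permutation p = 0.0159; adjusted p = 0.0397). Its primed difference of -0.88 did not pass (exact permutation p = 0.0476; adjusted p = 0.0794).

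**Figure D4:**
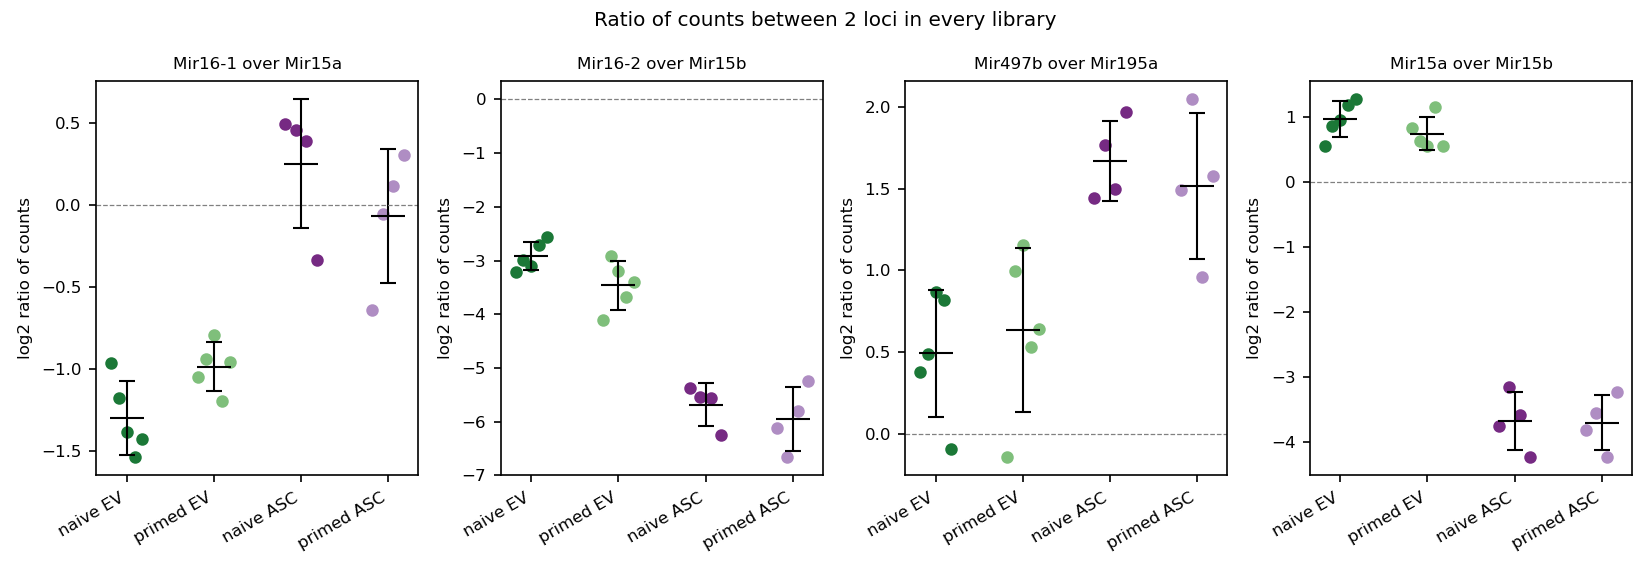
The log2 ratio of counts between neighbouring loci (3 panels, 1 added to each count) and of Mir15a over Mir15b (right) in every library, by group; points are libraries, long bars are means and whiskers are 1 SD. Mir16-1 over Mir15a is lower in EV than in ASC, Mir16-2 over Mir15b is higher, and Mir15a over Mir15b is above 0 in all EV and below 0 in all ASC libraries.

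The next question was what priming of the cells with interferon gamma changed. In EV no member passed. Group means of Mir15a were 421 ± 109 CPM in naive and 418 ± 79.2 CPM in primed EV (SD, n = 5 each), and those of Mir15b were 215 ± 45.2 and 249 ± 35.9 CPM. Of Mir16-1 they were 168 ± 27 and 209 ± 30.3 CPM, of Mir16-2 27.4 ± 6.39 and 22 ± 6.62 CPM, and of Mir195a 120 ± 43.4 and 155 ± 28.7 CPM. All members' libraries overlapped between the 2 groups. The log2 fold changes of primed over naive EV were -0.01 (SE 0.22) for Mir15a, 0.31 (SE 0.27) for Mir16-1, 0.21 (SE 0.19) for Mir15b, -0.29 (SE 0.34) for Mir16-2 and 0.36 (SE 0.26) for Mir195a (edgeR adjusted p from 0.673 to 0.993). Over all loci 0.816% passed, all of them higher, and 2.45% had groups that did not overlap. The value of Mir15b turned to -0.069 with library totals alone and that of Mir15a to 0.039 without the filter.

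In the cells no member passed either, beside 10.2% of all loci (5.31% higher and 4.9% lower). Mir15a was at 67.4 ± 8.78 CPM in naive and 68.7 ± 22.4 CPM in primed ASC (SD, n = 4 each), and Mir15b at 892 ± 230 and 891 ± 53.4 CPM. Mir16-1 was at 83 ± 24.7 and 69.3 ± 37.2 CPM, Mir16-2 at 15.9 ± 1.99 and 13.3 ± 7.57 CPM, and Mir195a at 110 ± 28.8 and 143 ± 41.2 CPM. The groups overlapped for all 5 members, while 11.4% of all loci had groups that did not (6.53% higher and 4.9% lower). The log2 fold changes were 0.05 (SE 0.26) for Mir15a, -0.24 (SE 0.31) for Mir16-1, -0.0007 (SE 0.21) for Mir15b, -0.19 (SE 0.41) for Mir16-2 and 0.38 (SE 0.30) for Mir195a (edgeR adjusted p from 0.455 to 0.998). Mir497b was at 0.50 (SE 0.28) for priming in EV and 0.26 (SE 0.31) in ASC, with adjusted p of 0.538 and 0.649 by the same test.

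The priming effect in EV minus that in ASC was 0.56 (SE 0.41) for Mir16-1, 0.21 (SE 0.28) for Mir15b, -0.02 (SE 0.40) for Mir195a, -0.06 (SE 0.34) for Mir15a and -0.11 (SE 0.54) for Mir16-2 on the log2 scale, and none passed (edgeR adjusted p from 0.567 to 0.989). No locus of the 245 passed this test in edgeR (0%), 26 had an unadjusted p under 0.05, and DESeq2 called 3. Among the ratios, Mir16-1 over Mir15a was 0.31 higher on the log2 scale in primed than in naive EV (exact permutation p = 0.0476; adjusted p = 0.0794), and Mir16-2 over Mir15b was 0.54 lower (-0.54; exact permutation p = 0.0556; adjusted p = 0.0794). Neither passed after adjustment.

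**Figure D5:**
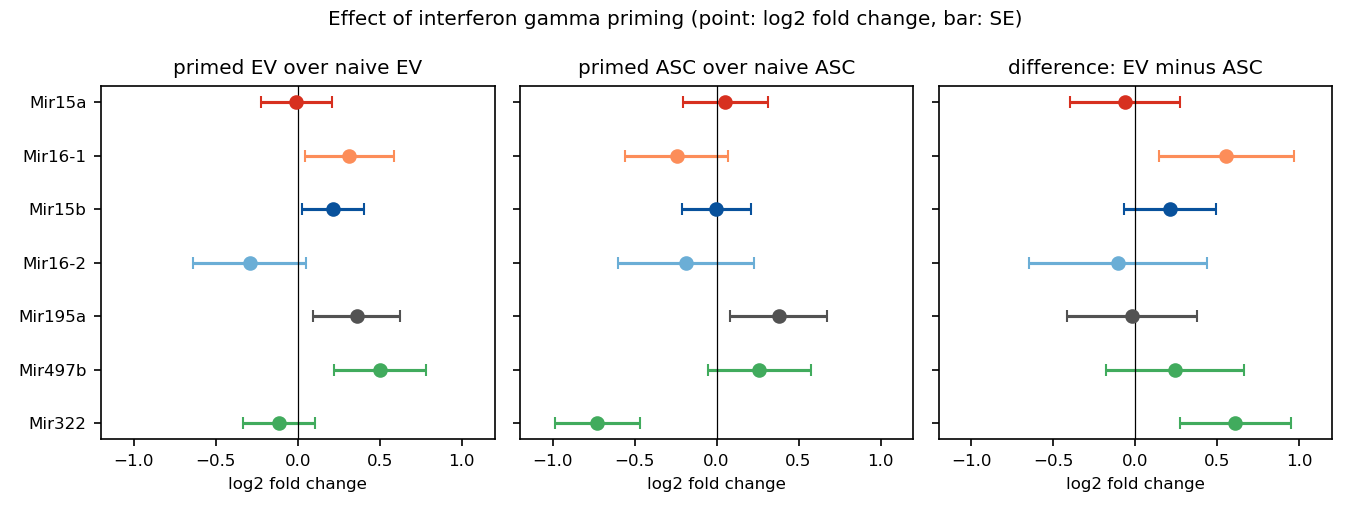
Effect of priming on the log2 scale in EV (left), in ASC (middle) and the difference between both (right) for the members, Mir497b and Mir322; points are log2 fold changes and whiskers are 1 SE. No locus shown passed; the value farthest from 0 is that of Mir322 in ASC at -0.73, which passed in some alternatives.

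By group means, Mir15a ran in the order naive EV, primed EV, primed ASC, naive ASC, and EV differed from ASC of the same treatment while naive and primed groups did not differ beyond their spread. Mir15b ran naive ASC, primed ASC, primed EV, naive EV, with the same steps. For Mir16-1 the order was primed EV, naive EV, naive ASC, primed ASC, and no order can be read for Mir16-2 or Mir195a, whose comparisons did not pass. By mean level Mir15b ranked 67th of 2009 rows in naive ASC and 114th in naive EV, and Mir15a ranked 151st and 89th. Only 524 of these rows had counts in naive ASC and 505 in naive EV.

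Of the other loci of the seed family with a row, only Mir322 and Mir503 had counts. Mir195b, Mir6342, Mir6353 and Mir6419, whose miRNAs carry the seed, had 0 of 17629699 counts, as had Mir1907, for which no RefSeq mature sequence with the seed was found, which allows up to 0.17 CPM each. Mir322, whose miR-322-5p carries the same seed, was at 324 ± 118 CPM in naive EV and 167 ± 26.9 CPM in naive ASC, and at 300 ± 31.4 and 99.3 ± 21.5 CPM in primed EV and ASC. It was higher in EV in both, at log2 fold changes of 0.96 (SE 0.24; edgeR adjusted p = 0.00166) and 1.58 (SE 0.25; adjusted p = 1.54e-05), and the naive call was lost with library totals alone (0.49, adjusted p = 0.0569). Between primed and naive ASC it did not pass at -0.73 (SE 0.26; edgeR adjusted p = 0.0751), though the groups did not overlap, and it passed with library totals alone (-0.78, adjusted p = 0.0449) and without naive EV 4 (-0.73, adjusted p = 0.0451) or primed ASC 5 (-0.86, adjusted p = 0.0478). Mir503, its neighbour on chromosome X, shares only bases 2 to 7 of the seed.

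The 2 miRNAs of that cluster are shown to make the seed difference visible, with bases 2 to 8 in capitals.
miR-322-5p: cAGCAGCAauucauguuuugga
miR-503-5p: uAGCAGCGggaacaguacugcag
Mir503 was lower in EV, at -1.59 in naive (SE 0.55; edgeR adjusted p = 0.0165) and -1.63 in primed material (SE 0.61; adjusted p = 0.0245). It had 123 counts in all and 0 in naive EV 5 and primed EV 1, which allows up to 4.96 and 5.64 CPM there. Its naive call was lost without naive ASC 3 (adjusted p = 0.0595), its primed call without primed ASC 2 (0.0592), and both without the filter (0.0866 and 0.156).

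The loci whose log2 CPM followed each member most closely over the 18 libraries were named by Pearson correlation, given as a description because the libraries share the division into EV and ASC. For Mir15a they were Mir26b (r = 0.980), Mir98 (0.973) and Mir30e (0.971), and for Mir16-1 Mir148a (0.953), Mirlet7f-2 (0.951) and Mirlet7g (0.950). For Mir15b they were Gm24083 (0.963), Mir125a (0.958) and Mir652 (0.958). Mir16-2 followed Mir374b (0.831), Mir181d (0.791) and Mir487b (0.774), and Mir195a had no close companion, with Mir155 (0.580), Mir29a (0.537) and Mir130a (0.476). Within the family, Mir15a correlated with Mir16-1 at 0.912, with Mir322 at 0.848 and with Mir15b at -0.930, and Mir195a with Mir497b at 0.394.

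Other miRNAs linked to the cell cycle were counted from 2 lists. Of 19 tested loci listed as restraining it, among them the let-7, miR-26 and miR-34 families and Mir322, 9 were higher and 5 lower in naive EV, with Mir98 at 2.54 (SE 0.26) and Mir26b at 2.08 (SE 0.23), and 11 were higher and 5 lower in primed EV. The list also held Mir503 and the Mir497b row, both among the 5 lower in each comparison. That row pools both strands and miR-497b lacks the seed, so its place on the list is uncertain. The median of this list was 0.41 and 0.66, beside -0.24 and 0.02 over all loci, of which 33.5% were higher and 32.7% lower in naive EV and 35.9% and 32.2% in primed EV. Of 12 tested loci that promote it, the miR-17-92 relatives, Mir221, Mir222 and Mir21a, 6 were higher and 0 lower in naive EV, with Mir19a at 4.86 (SE 0.46) and Mir20a at 3.82 (SE 0.43), and 7 were higher and 3 lower in primed EV, with medians of 0.64 and 0.77. Priming of ASC called 1 restraining locus higher, Mir34b at 0.86 (SE 0.25), and 1 lower, Mir98 at -0.83 (SE 0.26), and 0 promoting loci, beside 10.2% of all loci called, while priming called 0 of either list in EV by edgeR's test.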

How the data were processed

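Small RNA libraries of 18 samples were analysed. The values the authors deposited are raw read counts for each miRNA hairpin, with a file for every library. Per the file headers, they come from featureCounts 1.5.3 on Ensembl release 76 miRNA genes, without strand and without options for reads that fit several places or loci. STAR 2.0.4, bcl2fastq, Subread and featureCounts 1.45 are listed, with GRCm38, in the submitters' processing notes; how reads were trimmed and aligned was not given in the sources used here. Names came from GENCODE M21 by identifier (1894 of 2009 loci) and sequences from RefSeq (GRCm38.p6).

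Counts were tested with edgeR 4.0.16 in R 4.3.3: filterByExpr (245 loci, 99.9573% of counts), TMM, 1 quasi-likelihood fit over all libraries, and Benjamini-Hochberg adjustment over all loci at 0.05. SE is the size of the log2 fold change divided by the root of its F statistic. Ratios used scipy 1.17.1. DESeq2 1.42.0, limma 3.58.1, other scalings, filters, replicate blocks and left-out libraries were alternatives. Tests were checked on simulated data. Members and lists were chosen with earlier results of these data known. The text names all members, their seed relatives, the 3 loci most like each member, and up to 2 called loci per cell cycle list and comparison. Cell type markers are named outside this limit. No 2 libraries of a group agreed within sampling noise (32 pairs). Limits for counts of 0 (3 counts) cover counting error only.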

Additional observations from a re-analysis of the deposited data

Results flagged for a closer look

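In 3 of 36 groups of values checked, 1 library stood apart from the rest of its group, where about 1 in 20 groups would do so by chance. Mir15a in naive ASC 3 was at 80.5 CPM, above the other 3 naive ASC libraries. Mir16-1 in primed EV 2 was at 157 CPM, below the other 4 primed EV libraries, and this is the library with the highest total count, 3052942. The log2 ratio of Mir16-1 over Mir15a in naive ASC 5 was -0.34, below the other 3 naive ASC libraries, and without that library the difference between naive EV and naive ASC was -1.74 in place of -1.55.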

How the results depend on the processing

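The number of loci passing in EV against ASC was 152 to 181 in naive and 147 to 176 in primed material over 10 alternatives, beside 162 and 167. For primed against naive EV it was 2, and became 1 with TMMwsp factors, library totals alone or the stricter filter, 8 without a filter, 5 with DESeq2, 7 with the replicate block by title number, and 1 to 8 when 1 library was left out. For ASC priming it was 25, and became 40 with DESeq2, 15 with only the 2 groups compared, and 6 to 33 without 1 library. For the interaction it was 0, and became 3 without a filter, 3 with DESeq2 and 0 to 1 without 1 library. No call of a member changed under either replicate block. Libraries were correlated over loci by their deviations from the group means. Those of the same title number correlated at -0.16 to 0.525 (3 of 4, 3 of 5, 3 of 5 and 2 of 3 pairs over 0.1 in the 4 comparisons). The best match had the same title number for 3 of 4 naive EV and 3 of 5 primed EV libraries against ASC. It did for 1 of 5 primed EV libraries against naive EV and 2 of 3 primed ASC libraries against naive ASC. Because the labels state no pairing, the main fit did not pair the samples.

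Mir16-1 in naive material lost its call with library totals alone (0.56), and Mir16-2 gained one with relative log expression factors (0.89), TMMwsp (0.96) or only the 2 groups (0.79). Without 1 library Mir16-2 ran from 0.64 to 0.92 in naive and from 0.38 to 1.13 in primed material, and Mir195a from -0.091 to 0.31 and from -0.11 to 0.29; with library totals alone Mir195a was at -0.31 and -0.60. Values near 0 that did not pass changed sign, and the cause was not tested. For Mir15b in ASC priming these were 0.14 (relative log expression), 0.12 (TMMwsp), 0.073 (stricter filter), 0.14 (DESeq2), 0.039 (limma-voom), 0.0815 (the replicate block by title number, and 0.0816 by source name number) and 0.12 (only the 2 groups), and -0.065 to 0.26 without 1 library. In EV priming Mir15b was at -0.069 with library totals alone. Mir15a was at 0.039 in EV priming without a filter (-0.11 to 0.17 without 1 library), and at -0.021 in ASC priming with library totals alone (-0.18 to 0.30). Interactions changed sign for Mir15b at -0.015, -0.056 and -0.022 (relative log expression, TMMwsp, DESeq2; -0.10 to 0.32 without 1 library), for Mir15a at 0.023 (-0.40 to 0.12), Mir16-2 at 0.037 (-0.47 to 0.28) and Mir195a at 0.026 (-0.35 to 0.17), all 3 without a filter, and for Mir195a at 0.017 with the block by title number. Without 1 library, ASC priming ran from -0.71 to 0.027 for Mir16-1 and from -0.64 to 0.11 for Mir16-2, and EV priming of Mir322 from -0.22 to 0.16.

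The ratio tests of EV against ASC lost their adjusted calls whenever 1 library was left out, since fewer samples raise the smallest p possible (adjusted p from 0.0635 to 0.0893). Their differences then ran from -1.74 to -1.47 and from -1.11 to -0.79 for Mir16-1 over Mir15a in naive and primed material, from 2.57 to 2.87 for Mir16-2 over Mir15b and from -1.27 to -1.03 for Mir497b over Mir195a in naive material. Priming values of Mir497b over Mir195a ran from -0.0041 to 0.34 in EV and from -0.33 to 0.035 in ASC. Adding 0.5 in place of 1 changed no call. Mir16-2, at 2 to 68 counts per library, is the member that depth limits most.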
